A study of Mus musculus with 12 samples.

Results

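Sostdc1, Grem1, Nog, Fst, Sfrp1, Sfrp2, Wif1 and Dkk3 encode secreted proteins that bind or otherwise restrain bone morphogenetic proteins (BMPs), activins or Wnts outside the cell. The 8 genes were chosen by symbol with earlier results of these arrays known. Each was represented by 1 of the 35511 transcript clusters of the array, and all 8 were among the 15868 genes that passed a filter on low values. Since levels in these groups entered the choice, the values of the 8 genes are given as a description, with standard errors (SE) and no p-value.

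Gene expression had been measured on 12 Affymetrix Mouse Gene 1.0 ST arrays, 1 for each sample of primary keratinocytes, the epithelial cells that build the epidermis, from FVB/N mice. The first of 4 groups of 3 arrays held MT-HGF transgenic cells that had been mock transduced, kept in 8% fetal bovine serum and given AG1478, an inhibitor of the epidermal growth factor receptor (EGFR) kinase, for 24 h. The second held MT-HGF cells without the inhibitor, the third wild-type cells transduced with v-rasHa, an oncogenic viral form of the GTPase Hras, and the fourth wild-type control cells. MT-HGF mice carry a transgene for hepatocyte growth factor, the ligand of the receptor MET, under a metallothionein promoter. Such a promoter is not confined to keratinocytes.

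For the last 3 of these groups a shared note gives a transduction of 3 days and regular medium without starvation, but the sources used here do not say whether MT-HGF and wild-type control cells went through a mock transduction. A difference between v-rasHa cells and wild-type cells therefore cannot be told apart from an effect of transduction. The AG1478-treated arrays carry other words for culture and RNA extraction, and no vehicle-treated array was used here. AG1478, mock transduction and the culture conditions cannot be told apart in any comparison with those arrays. The sources used here give neither the ages of the mice nor how many stand behind each culture. The p-values measure only the spread between these arrays, part of which may be technical.

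BMPs and activins bind paired type I and type II receptor kinases, which phosphorylate Smad proteins, and BMP Smads switch on genes such as those of the Id family. Wnts bind Frizzled receptors and Lrp co-receptors, which stabilises beta-catenin, and beta-catenin with Tcf and Lef proteins switches on genes such as Axin2. In skin, secreted antagonists of both pathways take part in hair follicle formation, in the hair cycle and in the balance between growth and differentiation of the epidermis.

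The RefSeq promoter table held a window for 3 of the 8 genes, Grem1, Sfrp2 and Wif1. Grem1 is shown because its level differed among the groups, as described further on. The 250 bases before its RefSeq start lie on the minus strand of mouse chromosome 2, at chr2:113758649-113758898 in GRCm38.p6, and read 5′ to 3′ as follows, with GGCGCC in capitals.
Grem1: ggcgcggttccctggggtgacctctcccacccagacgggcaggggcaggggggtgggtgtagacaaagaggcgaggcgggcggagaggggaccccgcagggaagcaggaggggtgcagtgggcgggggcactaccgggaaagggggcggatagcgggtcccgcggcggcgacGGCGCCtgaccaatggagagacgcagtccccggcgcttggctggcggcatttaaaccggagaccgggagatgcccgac
GGCGCC is a core of GC-rich elements bound by BMP Smads. It was searched on both strands together with TGANTCA, a site of AP-1 factors, and CTTTGAT, a site of Tcf and Lef factors, and none of the 3 motifs overlapped another in this window. The match began 78 bases before the start, and Grem1 held no match to the other motifs. Among 32851 windows of the same length, 9.59% held GGCGCC, 6.75% held TGANTCA and 3.21% held CTTTGAT. The windows of Sfrp2 and Wif1 held 0 matches. The Grem1 window was 72% G and C, against a median of 52.4% over all windows. A match of letters is a description and not a site.

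Values were log2 expression values normalised by the authors, and levels of different genes cannot be set against each other on this scale. Array medians lay between 6.77 and 6.84. The background of each array was taken as the 95th percentile of 160 chemosensory receptor genes on it, at 6.82 to 7.22 log2 units. These 160 were the ones that passed the filter on low values, which sets this background higher. Over all 1250 chemosensory clusters it was 6.09 to 6.35. Statements on background and on bounds refer to the higher one unless said otherwise. Hgf averaged 10.74 ± 0.07 in AG1478-treated MT-HGF cells, 10.68 ± 0.08 in MT-HGF cells, 5.16 ± 0.24 in v-rasHa cells and 4.91 ± 0.06 in wild-type cells (SD, n = 3 each). The transgene's signal was thus present on all 6 MT-HGF arrays and at a low value on the other 6. All 10 keratinocyte markers of the list lay above background on every array. The text calls a gene changed where limma's two-sided test across all genes gave a Benjamini-Hochberg adjusted p under 0.05. For the 8 genes, whose levels entered their choice, passing or missing this threshold is part of the description and supports nothing. The lists of other genes were also chosen with earlier results of these arrays known, and many genes named from them are their largest changes. Their adjusted p-values are therefore part of the description too and give no independent support.

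Sostdc1, also called ectodin or Wise, binds BMPs and also the Wnt co-receptors Lrp5, Lrp6 and Lrp4. It had values of 6.88, 7.06 and 7.01 log2 units in AG1478-treated MT-HGF cells, 6.39, 6.25 and 6.18 in MT-HGF cells, 7.23, 7.64 and 7.32 in v-rasHa cells, and 10.30, 11.07 and 11.06 in wild-type cells. The wild-type arrays stood far above all others, and no group overlapped another. Neither MT-HGF group lay above its array's background on any array, while all 3 v-rasHa arrays did. Against wild type, Sostdc1 was at least 12.7-fold lower in AG1478-treated MT-HGF cells and at least 14.5-fold lower in MT-HGF cells, each set against the mean background of the lower group. Taken at their measured values, the differences were -3.83 and -4.54 log2 units, or 14.2-fold and 23.2-fold. It was lower by 3.41 ± 0.16 log2 units (SE) in v-rasHa cells than in wild type, which is 10.6-fold. In bulk samples, fewer cells of a type and less RNA per cell cannot be told apart. The spread of Sostdc1 over the 4 group means was 4.54 log2 units, at the 99.97th percentile of the genes tested, which describes the gene that was chosen.

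Among the groups that stood low, Sostdc1 was at least 1.37-fold lower in MT-HGF cells than in v-rasHa cells. It was at least 1.20-fold lower in AG1478-treated MT-HGF cells than in v-rasHa cells, a difference that no longer passed the threshold without v-rasHa replicate 2 (-0.29 log2 units before any bound), without any 1 of the AG1478-treated replicates, without v-rasHa replicate 3 or with no filter on low values. Between the 2 MT-HGF groups the 3 AG1478-treated values were the higher ones, but since all 6 lay at or below background no difference is given.

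Grem1, the gene of gremlin, binds BMP2, BMP4 and BMP7. Its values were 8.64, 8.62 and 8.81 log2 units in AG1478-treated MT-HGF cells, 8.78, 8.65 and 8.62 in MT-HGF cells, 9.77, 9.71 and 9.73 in v-rasHa cells, and 7.90, 7.91 and 7.87 in wild-type cells. The v-rasHa arrays were highest and the wild-type arrays lowest, with no overlap, and the 2 MT-HGF groups shared a range between them. Against wild type it was higher by 0.80 ± 0.07 log2 units (SE) in AG1478-treated MT-HGF cells, by 0.79 ± 0.07 in MT-HGF cells and by 1.84 ± 0.07 in v-rasHa cells, the last of which is 3.59-fold. MT-HGF cells were 1.05 ± 0.07 log2 units below v-rasHa cells. The difference of AG1478-treated from untreated MT-HGF cells was 0.006 log2 units, with a 95% interval of -0.14 to 0.15.

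Nog encodes noggin, which blocks BMP2 and BMP4 and is made by the dermal cells of the follicle in skin. Its values were 6.93, 7.01 and 7.03 log2 units in AG1478-treated MT-HGF cells, 6.90, 6.97 and 6.94 in MT-HGF cells, 7.0, 6.99 and 6.84 in v-rasHa cells, and 7.26, 7.18 and 7.12 in wild-type cells. It stood above background on 0, 2, 1 and 3 arrays of these groups, in that order, and the wild-type arrays were the highest with no overlap. The other groups overlapped one another. Nog was lower than in wild type by 0.25 ± 0.07 log2 units (SE) in MT-HGF cells and by 0.24 ± 0.07 in v-rasHa cells. In AG1478-treated MT-HGF cells it was at least 1.03-fold lower than in wild type. That difference did not pass the threshold without AG1478-treated replicate 1 or without wild-type replicate 1 or 2, and the one of v-rasHa cells did not without v-rasHa replicate 3.

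Fst encodes follistatin, which binds activins tightly and BMPs less so. Its values were 11.90, 11.83 and 11.73 log2 units in AG1478-treated MT-HGF cells, 12.21, 12.39 and 12.23 in MT-HGF cells, 12.37, 12.32 and 12.43 in v-rasHa cells, and 12.20, 12.26 and 12.24 in wild-type cells. The AG1478-treated arrays were the lowest with no overlap. Fst was lower by 0.46 ± 0.07 log2 units (SE), or 1.38-fold, in AG1478-treated than in untreated MT-HGF cells, and by 0.41 ± 0.07 than in wild type. It differed from wild type by 0.05 ± 0.07 log2 units in MT-HGF cells and by 0.14 ± 0.07 in v-rasHa cells, and neither difference passed the threshold. The first of these had the opposite sign when the values were quantile normalised once more (-0.03) and without MT-HGF replicate 2 (-0.01). Of the 8 genes, Fst was the one above background that passed the threshold between the 2 MT-HGF groups, and Dkk3, lower by 0.20 ± 0.07 with AG1478, passed it with the stricter filter and with array weights.

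**Figure D1:**
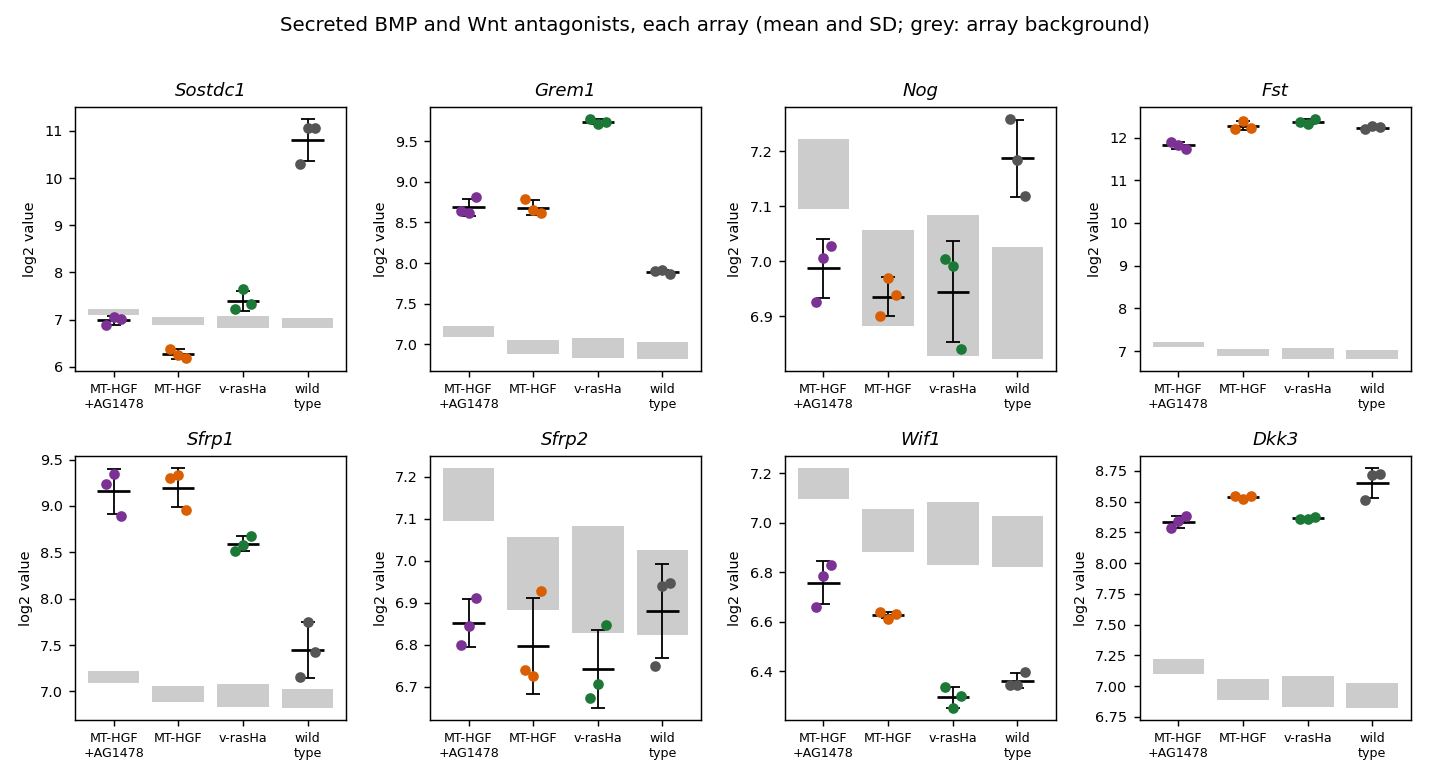
Log2 expression of each of the 8 genes on every array, in the order AG1478-treated MT-HGF, MT-HGF, v-rasHa and wild type. Points are arrays, lines are means with SD (n = 3), and grey bands span the array backgrounds of a group; Sostdc1 was at 10.30 to 11.07 in wild type and at 7.64 or lower elsewhere, while Wif1 lay below the bands throughout.

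Sfrp1 encodes a secreted protein with a Frizzled-like domain that binds Wnts. Its values were 9.24, 9.34 and 8.89 log2 units in AG1478-treated MT-HGF cells, 9.31, 9.33 and 8.95 in MT-HGF cells, 8.52, 8.58 and 8.68 in v-rasHa cells, and 7.15, 7.75 and 7.42 in wild-type cells. Both MT-HGF groups were highest and shared their range, the v-rasHa arrays lay below them, and wild type was lowest with no overlap. Against wild type it was higher by 1.71 ± 0.14 log2 units (SE) in AG1478-treated MT-HGF cells, by 1.75 ± 0.14 in MT-HGF cells and by 1.15 ± 0.14 in v-rasHa cells, which are 3.28-fold, 3.37-fold and 2.22-fold. MT-HGF cells were 0.60 ± 0.14 log2 units above v-rasHa cells, the opposite of the order of these 2 groups in Grem1. The difference of AG1478-treated from untreated MT-HGF cells was -0.04, with a 95% interval of -0.34 to 0.26.

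Sfrp2, a close relative of Sfrp1, had values near background in every group. They were 6.80, 6.85 and 6.91 log2 units in AG1478-treated MT-HGF cells, 6.74, 6.72 and 6.93 in MT-HGF cells, 6.67, 6.71 and 6.85 in v-rasHa cells, and 6.75, 6.94 and 6.95 in wild-type cells. All groups overlapped, at most 1 array of a group exceeded its background, and no comparison passed the threshold. With array weights Sfrp2 passed it in all 3 comparisons with wild type, at -0.12 log2 units in AG1478-treated MT-HGF cells, -0.16 in MT-HGF cells and -0.21 in v-rasHa cells.

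Wif1 encodes Wnt inhibitory factor 1, which binds Wnts through its WIF domain. It did not exceed background on any array. Its values were 6.66, 6.79 and 6.83 log2 units in AG1478-treated MT-HGF cells, 6.64, 6.61 and 6.63 in MT-HGF cells, 6.34, 6.25 and 6.30 in v-rasHa cells, and 6.35, 6.34 and 6.40 in wild-type cells. The values were higher in both MT-HGF groups than in the other 2 groups, but below background no difference is given.

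Dkk3 is a divergent member of the Dickkopf family. Other Dickkopf proteins block Wnt signalling through Lrp5 and Lrp6, while the mode of action of Dkk3 is less settled. Its values were 8.28, 8.34 and 8.38 log2 units in AG1478-treated MT-HGF cells, 8.54, 8.52 and 8.54 in MT-HGF cells, 8.36, 8.36 and 8.38 in v-rasHa cells, and 8.51, 8.72 and 8.72 in wild-type cells. It was lower than in wild type by 0.31 ± 0.07 log2 units (SE) in AG1478-treated MT-HGF cells and by 0.29 ± 0.07 in v-rasHa cells. MT-HGF cells overlapped wild type, with a difference of -0.12 ± 0.07 that did not pass the threshold except without wild-type replicate 1, where it was -0.19, and with array weights.

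**Figure D2:**
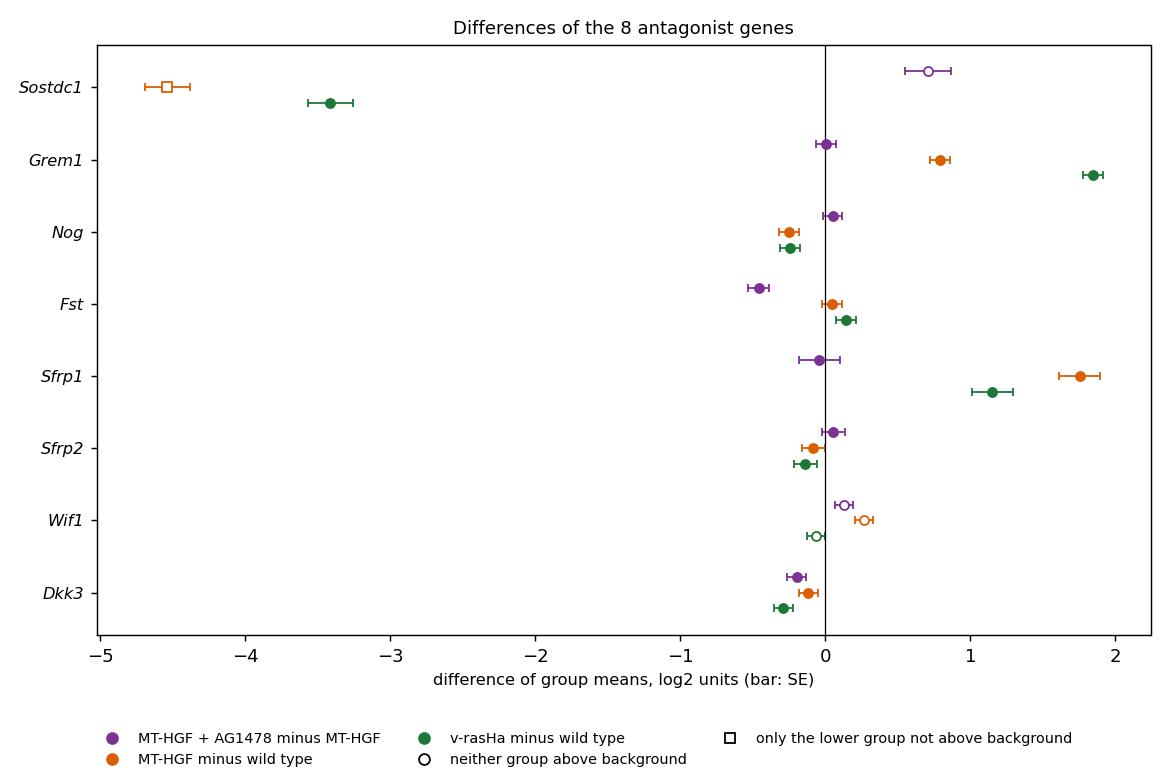
Differences of group means in log2 units, with SE bars, for AG1478-treated minus untreated MT-HGF cells, MT-HGF minus wild type and v-rasHa minus wild type. Open circles mark pairs in which neither group exceeded background and open squares pairs in which only the lower group did not, so that the plotted point is not a measured size; Grem1 and Sfrp1 lie right of 0 in both comparisons with wild type and near 0 for the AG1478 comparison.

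Counts over the 8 genes are given beside the share of all 15868 genes, and since the genes were chosen from these comparisons nothing is read from them. For AG1478-treated MT-HGF cells against wild type, 3 of 8 were past the threshold upward and 4 downward, beside 16.8% and 26.2% of all genes. For MT-HGF against wild type the counts were 3 and 2, beside 17.1% and 23.9%. For v-rasHa against wild type they were 2 and 3, beside 12.6% and 19.9%. For AG1478-treated against untreated MT-HGF cells they were 1, Sostdc1 below background, and 1, Fst, beside 6.57% and 9.91%. For MT-HGF against v-rasHa cells they were 2 and 2, beside 13.4% and 12.6%, and for AG1478-treated MT-HGF against v-rasHa cells 2 and 3, beside 16.3% and 20.4%. In 4 of these comparisons, each of a group with the MT-HGF transgene against one without it, 1 of the genes counted upward was Wif1, which lay below background in both groups. The wild-type arrays are shared by 3 of these 6 comparisons, and each other group also enters 3. The median difference over the 8 genes lay between -0.11 and 0.03 log2 units in the 6 comparisons, and the -0.11, of AG1478-treated MT-HGF cells against wild type, was -0.04 with bounded genes at their bound. Medians over all genes lay between -0.03 and 0.02.

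The genes most like each antagonist were ranked by the root mean square difference over the 12 arrays, each gene centred on its own mean, among genes whose 4 group means had an SD of 0.5 log2 units or more. For Sostdc1 these were Cyp4a12b (0.47 log2 units), Ccdc80 (0.47), Actg2 (0.58), Lox (0.64) and Igfbp2 (0.66). Lox, the collagen cross-linking enzyme lysyl oxidase, averaged 6.98 in AG1478-treated MT-HGF cells, 6.89 in MT-HGF cells, 7.18 in v-rasHa cells and 9.74 in wild-type cells. Igfbp2, an insulin-like growth factor binding protein, averaged 9.02, 7.68, 10.26 and 12.07 in the same order. For Grem1 the nearest were Lce1k (0.15) and Lce1j (0.17), genes of late cornified envelope proteins. Lce1k averaged 9.65 in AG1478-treated MT-HGF cells, 9.59 in MT-HGF cells, 10.77 in v-rasHa cells and 8.60 in wild-type cells. For Sfrp1 they were Scd2 (0.18), a fatty acid desaturase, and Slc15a1 (0.18), a peptide transporter. The other antagonists varied less than the genes they were matched to, and their nearest, at 0.27 to 0.40 log2 units, were Dusp8 and Bex3 for Nog, Trim16 and Bcat1 for Fst, Serpinf1 and Dusp8 for Sfrp2, Mab21l3 and Cdk2ap2 for Wif1, and Tslp and Cd59a for Dkk3.

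Some other antagonists of the 2 pathways were called. Of 10 other BMP and activin antagonists measured, 2 were called higher and 1 lower in AG1478-treated MT-HGF cells than in wild type, 0 and 2 in MT-HGF cells, and 1 and 3 in v-rasHa cells. Of all genes, 16.8% and 26.2%, 17.1% and 23.9%, and 12.6% and 19.9% were called in the same order, and nothing is read from these counts. The shares given for each comparison also stand beside the counts of every list below. Fstl1, a secreted follistatin-like protein, had values of 9.0, 8.97 and 9.08 log2 units in AG1478-treated MT-HGF cells, 9.01, 8.85 and 8.86 in MT-HGF cells, 9.06, 8.88 and 9.08 in v-rasHa cells, and 10.25, 10.38 and 10.38 in wild-type cells. Wild type stood apart and the others overlapped. Fstl1 fell against wild type in all 3 groups, with differences of -1.31 ± 0.07, -1.42 ± 0.07 and -1.33 ± 0.07 log2 units (SE) and limma adjusted p of 4.35e-10, 1.27e-10 and 3.95e-10.

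Twsg1, which binds BMPs together with chordin, rose by 0.54 ± 0.07 log2 units in AG1478-treated over untreated MT-HGF cells (limma adjusted p = 7.41e-05). It had 9.76, 9.74 and 9.65 log2 units in AG1478-treated cells and 9.09, 9.16 and 9.28 in untreated ones. Against wild type it fell by 0.32 in v-rasHa cells (adjusted p = 0.00330). Fstl3, which binds activins, fell by 0.46 in v-rasHa cells, and Nbl1, a BMP antagonist of the DAN family, rose by 0.33 there (adjusted p = 7.87e-05 and 0.00616). Bmper, called lower in MT-HGF cells than in wild type, lay below background in both. Nbl1 rose by 0.40 in AG1478-treated MT-HGF cells against wild type.

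Of 8 other Wnt antagonists measured, Apcdd1, a membrane inhibitor of Wnt receptors, fell by 0.47 ± 0.06 log2 units (SE) in MT-HGF cells and by 0.80 ± 0.06 in v-rasHa cells against wild type (limma adjusted p = 7.99e-06 and 2.05e-08). It rose by 0.37 ± 0.06 in AG1478-treated over untreated MT-HGF cells (adjusted p = 3.63e-04). Its values of 10.17, 10.11 and 10.17 in AG1478-treated cells lay above the 9.77, 9.75 and 9.82 of untreated ones. Dkk2, which binds Lrp5 and Lrp6, had 7.28, 7.11 and 7.40 log2 units in v-rasHa cells, against 6.32, 6.33 and 6.22 in wild-type cells. It rose by at least 0.33 log2 units there (adjusted p = 1.05e-06) and was below background in the other groups. Frzb, a secreted Frizzled-related protein, was called in 5 of the comparisons and lay below background in all groups. Chrdl1, Cer1 and Sfrp4 were not analysed here.

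**Figure D3:**
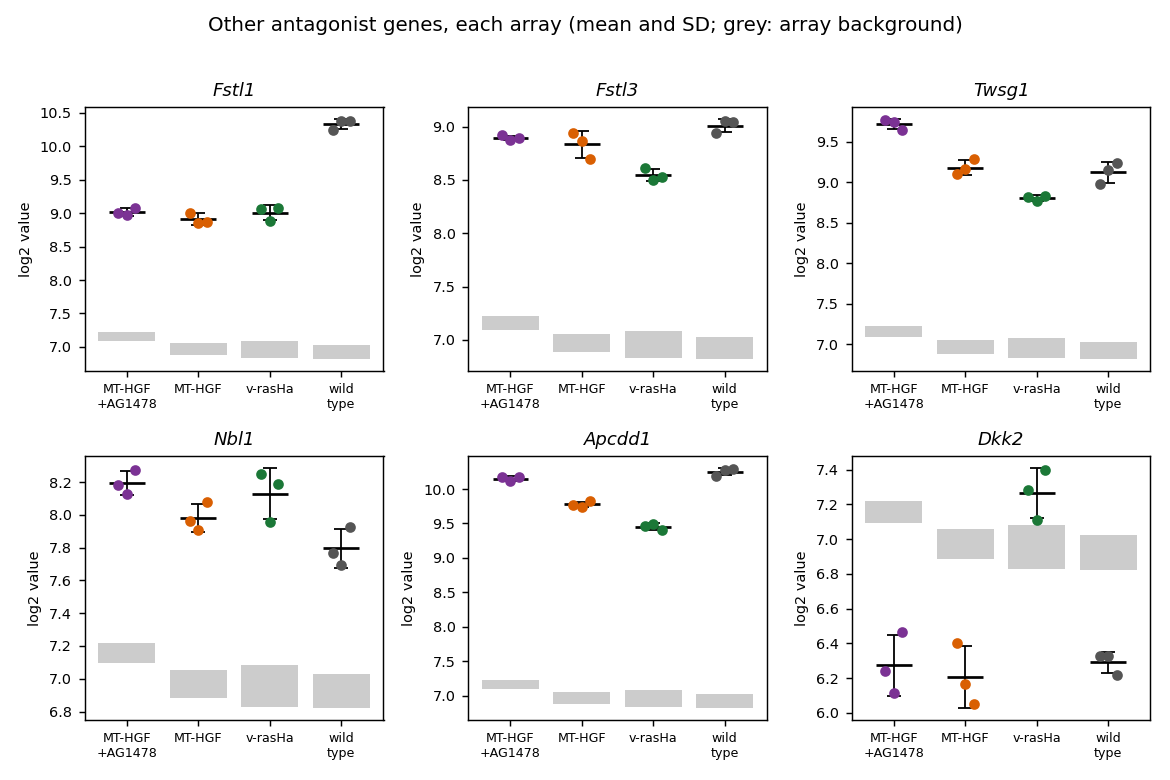
Log2 expression on every array of 6 antagonist genes outside the 8, in the same group order. Points are arrays, lines means with SD (n = 3), grey bands the array backgrounds; Fstl1 sits at 8.85 to 9.08 in 3 groups and at 10.25 to 10.38 in wild type, and Dkk2 exceeds the band of its group in v-rasHa cells alone of the 4.

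Calls of the ligands that these proteins bind went in both directions. Of 13 BMP and activin ligands, 5 rose and 3 fell in AG1478-treated MT-HGF cells against wild type, 5 and 3 in MT-HGF cells, and 3 and 3 in v-rasHa cells. Bmp4, a ligand of noggin and gremlin, had 8.20, 8.14 and 8.07 log2 units in AG1478-treated MT-HGF cells, 8.00, 8.08 and 8.01 in MT-HGF cells, 8.42, 8.36 and 8.54 in v-rasHa cells, and 8.84, 9.35 and 9.18 in wild-type cells. It fell by 1.09 ± 0.10 log2 units (SE) in MT-HGF cells and by 0.68 ± 0.10 in v-rasHa cells against wild type (limma adjusted p = 1.22e-07 and 4.22e-05). Bmp6 rose by 0.74 in MT-HGF and by 0.73 in v-rasHa cells. Bmp8b rose by 0.75 in MT-HGF cells (adjusted p = 5.06e-07), and Bmp2, called higher than in wild type in all 3 groups, lay below background throughout. For Bmp3, also called higher in all 3, only bounds hold. They were at least 0.16 in AG1478-treated MT-HGF cells, 0.30 in MT-HGF cells and 0.01 in v-rasHa cells. Bmp6 was thus the sole called rise in v-rasHa cells that was measured in both groups. Inhbb, an activin subunit, fell by 0.76 in MT-HGF and by 0.64 in v-rasHa cells. Inhba, the subunit of activin A that follistatin binds, fell against wild type in all 3 groups. The falls were 0.78 in AG1478-treated MT-HGF cells, 0.74 in MT-HGF cells and 0.30 in v-rasHa cells (limma adjusted p = 7.21e-07, 1.21e-06 and 0.00816). Inhba differed by -0.04 between AG1478-treated and untreated MT-HGF cells (limma adjusted p = 0.769).

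Of 18 Wnt ligands measured, 6 rose and 2 fell in AG1478-treated MT-HGF cells against wild type, 2 and 3 in MT-HGF cells, and 1 and 3 in v-rasHa cells. With array weights the 6 became 10 and the 1 became 3. Wnt7a had 8.84, 8.75 and 8.53 log2 units in AG1478-treated MT-HGF cells, 9.40, 9.44 and 9.40 in MT-HGF cells, 9.10, 8.87 and 9.08 in v-rasHa cells, and 7.73, 7.53 and 7.64 in wild-type cells. Against wild type it rose by 1.78 in MT-HGF cells and by 1.38 in v-rasHa cells (limma adjusted p = 4.97e-11 and 1.49e-09), and it fell by 0.71 in AG1478-treated against untreated MT-HGF cells (1.96e-05). Wnt3 ran the other way in each of these. It had 8.01, 8.15 and 7.78 in AG1478-treated MT-HGF cells, 7.06, 7.17 and 7.24 in MT-HGF cells, 7.37, 7.47 and 7.59 in v-rasHa cells, and 8.51, 8.58 and 8.61 in wild-type cells. Wnt3 fell by 1.41 in MT-HGF cells and by 1.09 in v-rasHa cells against wild type, and rose by 0.82 in AG1478-treated over untreated MT-HGF cells (adjusted p = 1.28e-09, 4.82e-08 and 5.82e-06). In that last comparison 6 Wnt ligands rose and 2 fell, and the 6 became 3 without MT-HGF replicate 2 or without replicate 3. The 6 include Wnt11, which lay below background in both groups, so that no difference is given. They also include Wnt10b and Wnt16, for which only bounds hold, as for the fall of Wnt5a.

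Receptors, listed with Smads for BMPs and activins, were called mainly downward against wild type. Of all genes, 26.2%, 23.9% and 19.9% were called lower in AG1478-treated MT-HGF, MT-HGF and v-rasHa cells. Called higher were 16.8%, 17.1% and 12.6%. Of 13 BMP and activin receptors and Smads, 0 rose and 7 fell in each of the 3 groups, and the 7 of v-rasHa cells became 3 without v-rasHa replicate 1 and 4 without wild-type replicate 3. Bmpr1b, a type I BMP receptor, fell by at least 0.57 log2 units in AG1478-treated MT-HGF cells, at least 0.76 in MT-HGF cells and by 0.44 ± 0.08 (SE) in v-rasHa cells (limma adjusted p = 2.74e-07, 3.09e-08 and 4.00e-04). Of 19 Wnt receptors and co-receptors, 3 rose and 10 fell in AG1478-treated MT-HGF cells against wild type, 1 and 13 in MT-HGF cells, and 0 and 12 in v-rasHa cells. The 1 of MT-HGF cells was Fzd4, which lay below background in both groups. The 13 include Fzd9, which lay near background, so that no size is given. The 3 became 1 without wild-type replicate 2, and the 0 of v-rasHa cells was 1 after a second quantile normalisation, with the stricter filter, in a fit of the 2 groups alone and with a replicate block, and 2 with array weights. Lgr4, a receptor for R-spondins, fell by 1.52 in MT-HGF cells and by 1.54 in v-rasHa cells. Lrp4, which Sostdc1 binds, rose by 0.75 in AG1478-treated over untreated MT-HGF cells (adjusted p = 1.64e-06). It was 1 of 6 Wnt receptors that rose in that comparison, where 0 fell, and the 6 became 3 without AG1478-treated replicate 1 or MT-HGF replicate 2.

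Of 13 intracellular Wnt transducers, 1 rose and 5 fell in AG1478-treated MT-HGF cells against wild type, 1 and 6 in MT-HGF cells, and 0 and 4 in v-rasHa cells. The 5 became 3 without AG1478-treated replicate 1 or 2 or wild-type replicate 2. Tcf7l2, a partner of beta-catenin on DNA, fell by 0.77 in MT-HGF cells and by 0.68 in v-rasHa cells (limma adjusted p = 4.72e-08 and 3.48e-07).

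Genes that respond to BMPs fell against wild type where they were called in the fit reported here. In v-rasHa cells Smad7 was 0.23 log2 units above wild type and not called (limma adjusted p = 0.0740). It was called higher there, by 0.25 log2 units, after a second quantile normalisation and, by 0.32, without wild-type replicate 1. With array weights 1 gene of this list was called higher in v-rasHa cells. Of 9 measured, 0 rose and 5 fell in AG1478-treated MT-HGF cells, 0 and 6 in MT-HGF cells, and 0 and 5 in v-rasHa cells. The median differences were -0.39, -0.52 and -0.29 log2 units in that order. Id1, an inhibitor of helix-loop-helix factors and a direct BMP target, had 9.50, 9.63 and 9.37 log2 units in AG1478-treated MT-HGF cells, 8.60, 8.77 and 8.73 in MT-HGF cells, 8.59, 8.58 and 8.57 in v-rasHa cells, and 9.42, 9.57 and 9.49 in wild-type cells. The AG1478-treated and wild-type arrays shared the upper range, and the other groups lay below them. Id1 fell by 0.79 ± 0.07 log2 units (SE) in MT-HGF cells and by 0.91 ± 0.07 in v-rasHa cells against wild type (limma adjusted p = 2.20e-07 and 5.06e-08). It rose by 0.80 ± 0.07 in AG1478-treated over untreated MT-HGF cells (1.28e-06) and differed by 0.009 ± 0.07 from wild type (adjusted p = 0.934).

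Id2 fell by 1.49 ± 0.12 log2 units (SE) in MT-HGF cells and by 0.67 ± 0.12 in v-rasHa cells against wild type, and rose by 0.70 ± 0.12 in AG1478-treated over untreated MT-HGF cells (limma adjusted p = 2.76e-08, 3.25e-04 and 5.76e-04). Its values were 10.14, 10.15 and 10.35 in AG1478-treated MT-HGF cells, 9.26, 9.58 and 9.72 in MT-HGF cells, 10.40, 10.19 and 10.41 in v-rasHa cells, and 10.76, 11.14 and 11.13 in wild-type cells. Id3 fell by 0.87 and by 0.70 against wild type in MT-HGF and v-rasHa cells and rose by 0.47 with AG1478. Msx2, a homeobox gene that BMPs induce, fell by 0.67 and by 0.59 and rose by 0.27 in the same comparisons. In AG1478-treated over untreated MT-HGF cells, 4 of the 9 genes rose, and Smad7, an inhibitory Smad, fell by 0.51 (adjusted p = 0.00120). Smad7 is induced by TGF-beta as well as BMPs. Its fall of 0.29 in MT-HGF cells against wild type was lost without MT-HGF replicate 1 or 2 or wild-type replicate 1.

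Of 11 Wnt response genes measured, 1 rose and 6 fell in AG1478-treated MT-HGF cells against wild type, 1 and 7 in MT-HGF cells, and 1 and 6 in v-rasHa cells. The median differences were -0.26, -0.32 and -0.43 log2 units in that order. Ccn4, also called Wisp1, a secreted matrix protein, had 8.01, 7.96 and 7.93 log2 units in AG1478-treated MT-HGF cells, 7.91, 8.04 and 7.91 in MT-HGF cells, 8.33, 8.33 and 8.29 in v-rasHa cells, and 10.07, 10.27 and 10.28 in wild-type cells. It fell against wild type in all 3 groups, with differences of -2.24, -2.25 and -1.89 log2 units, each with an SE of 0.07 (limma adjusted p = 5.65e-13, 2.58e-13 and 1.94e-12). Rnf43, which removes Frizzled receptors from the cell surface, fell by 0.87 in MT-HGF cells and by 0.66 in v-rasHa cells, and rose by 0.38 in AG1478-treated over untreated MT-HGF cells.

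Axin2, a feedback inhibitor of beta-catenin, had 8.16, 8.02 and 8.29 log2 units in AG1478-treated MT-HGF cells, 7.91, 7.73 and 7.91 in MT-HGF cells, 7.41, 7.55 and 7.60 in v-rasHa cells, and 8.06, 8.12 and 8.09 in wild-type cells. It fell by 0.57 ± 0.08 log2 units (SE) in v-rasHa cells against wild type (limma adjusted p = 2.81e-05). Its fall of 0.24 in MT-HGF cells was lost without MT-HGF replicate 2 or wild-type replicate 2 or 3, and its rise of 0.31 with AG1478 without AG1478-treated replicate 3 or MT-HGF replicate 2. Nkd2, another feedback inhibitor, fell by 0.42 in MT-HGF cells and by 0.82 in v-rasHa cells. Lgr5, an R-spondin receptor that is also a Wnt target, was above background in wild type and fell by at least 0.72 in MT-HGF cells and at least 0.68 in v-rasHa cells. Ccnd1, the gene of cyclin D1, which growth factor signals also raise, rose by 0.34 in MT-HGF cells and by 0.28 in v-rasHa cells against wild type, and fell by 0.41 in AG1478-treated against untreated MT-HGF cells (adjusted p = 1.80e-04, 0.00148 and 1.21e-04). In AG1478-treated MT-HGF cells against wild type the gene that rose was Nkd1, a relative of Nkd2, by 0.39 (adjusted p = 0.00122), while Ccnd1 differed by -0.07. Znrf3, which acts like Rnf43, fell by 0.26 in AG1478-treated MT-HGF cells, by 0.34 in MT-HGF cells and by 0.43 in v-rasHa cells.

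**Figure D4:**
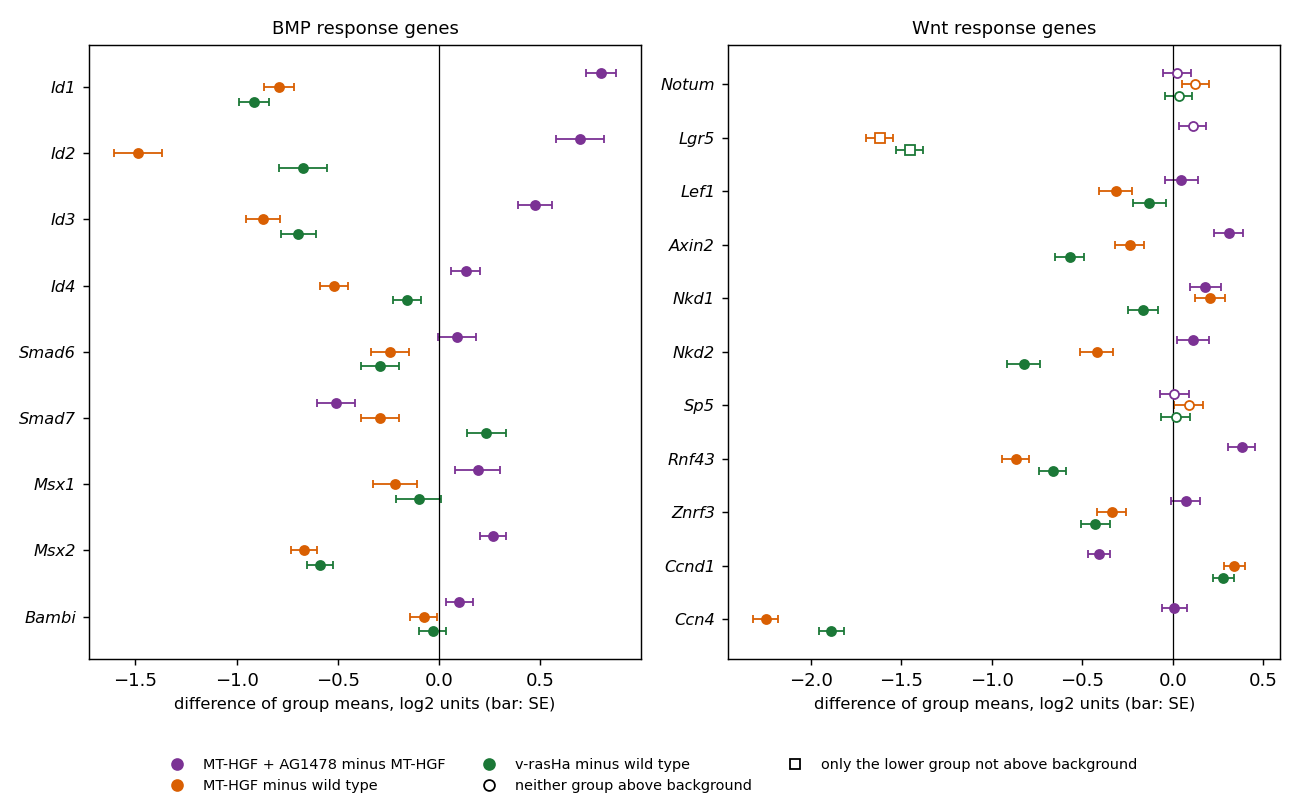
Differences of group means in log2 units, with SE bars, of the BMP and Wnt response genes for AG1478-treated minus untreated MT-HGF cells, MT-HGF minus wild type and v-rasHa minus wild type. Open circles mark pairs with neither group above background and open squares pairs with only the lower group not above it; Id1 lies at 0.80 for the AG1478 comparison, at -0.79 for MT-HGF and at -0.91 for v-rasHa cells.

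Over all 110 pathway genes outside the 8, 18 rose and 38 fell in AG1478-treated MT-HGF cells against wild type, 10 and 47 in MT-HGF cells, and 8 and 43 in v-rasHa cells. In AG1478-treated over untreated MT-HGF cells 23 rose and 6 fell. In MT-HGF against v-rasHa cells 15 rose and 18 fell, and in AG1478-treated MT-HGF against v-rasHa cells 26 and 20. These counts stand beside the shares of all genes given above and were not tested as sets. They include calls of genes that lay below background in both groups, such as Bmp2, Frzb, Fzd4 and Wnt11. Counts of 0, 1 or 2 against wild type shifted by 1 without AG1478-treated replicate 3 or wild-type replicate 3 for the other BMP antagonists, and without wild-type replicate 1 for the Wnt ligands and both lists of response genes. They did so without MT-HGF replicate 1 or 2 or wild-type replicate 2 or 3 for the Wnt receptors, and without AG1478-treated replicate 2 or wild-type replicate 1 for the transducers.

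Several of these genes, the antagonists included, are also made by dermal fibroblasts or follicle cells. Of 11 fibroblast markers measured, 8 lay above background in every group. Lum and Dpt lay below it on all arrays, and Postn on all but 1 wild-type array. The summed level of all 12 listed fibroblast markers, on the log2 scale, was 12.24 to 12.31 in AG1478-treated MT-HGF cells, 12.20 to 12.31 in MT-HGF cells, 11.61 to 11.67 in v-rasHa cells and 12.49 to 12.62 in wild-type cells. In the first 3 of these groups against wild type, 3, 3 and 0 of the 11 measured rose and 7 fell in each. Dcn, the gene of the matrix proteoglycan decorin, rose by 1.77 in MT-HGF cells, while Thy1 fell by 1.16 there and Col1a1 fell by 1.37 in v-rasHa cells. The follicle markers summed to 12.06 to 12.32, 12.00 to 12.01, 12.17 to 12.22 and 12.33 to 12.40 in AG1478-treated MT-HGF, MT-HGF, v-rasHa and wild-type cells. All 8 melanocyte markers lay above background, with sums of 13.37 to 13.52, 13.37 to 13.54, 13.79 to 13.93 and 13.72 to 13.85 in the same order. At most 2 of 7 leukocyte and 1 of 5 endothelial markers did so on all 3 arrays of a group. Cd3e and Tyrobp also exceeded it on at least 1 wild-type array, and Cd3e on at least 1 v-rasHa array. The leukocyte markers summed to 10.57 to 10.83 in AG1478-treated MT-HGF cells, 10.67 to 10.78 in MT-HGF cells, 10.71 to 10.87 in v-rasHa cells and 10.23 to 10.31 in wild-type cells. These sums mainly follow Cd68, which had the highest array values of the leukocyte markers measured, at 8.96 in wild-type and 10.24 in MT-HGF cells. They are therefore no measure of leukocytes. Cd68, a lysosomal protein of macrophages and other cells, rose by 1.12, 1.28 and 1.29 against wild type in the other 3 groups. Lyz2, a macrophage lysozyme, ran the other way and was above background in wild type and not in the others. Tyrobp was also called lower than in wild type in all 3 groups, but lay near or below background, so that no size is given. The endothelial markers summed to 9.11 to 9.30 over all groups. The sums of the marker lists also hold listed genes that failed the filter on low values. These were Fap among the fibroblast, Cd207 among the leukocyte, Kdr and Emcn among the endothelial and Krt25 among the follicle markers. The part of fibroblasts, follicle cells and the other cell types in the levels of the 8 genes was not tested.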

How the data were processed

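The deposited table holds log2 expression values, summarised by the authors with RMA per the submitters' processing notes. RMA's version and the genome build are not given in the sources used here. Of 35511 transcript clusters, 21789 had a single gene symbol in the platform's annotation, 1621 several and 12101 none listed. Clusters above their array's 30th percentile on at least 3 arrays were kept, and the cluster with the highest mean stood for a gene, giving 15868 genes. A group-means model over all 12 arrays was fitted with limma 3.58.1 (R 4.3.3, eBayes defaults, Benjamini-Hochberg over all genes) and tested on simulated data. A group was held above background where any array exceeded its own 95th percentile of chemosensory receptors. Differences against a group not above background are bounds, the higher mean against the mean of the lower group's percentiles. The 8 genes and all lists were chosen with earlier results of these data known. The text drew its names from all 8 genes, the 2 largest called rises and falls of each list and comparison, the other antagonists and response genes, and the nearest patterns. Not every gene so eligible is named. Some genes that qualify a count or a sum are named as well. Figures were drawn with matplotlib 3.10.9. Groups follow the sample titles; the design text names fewer conditions. The number of arrays limits the precision. Alternatives were no filter, a stricter filter, a second quantile normalization, array weights, trended robust eBayes, fits of the groups compared alone, a replicate block and leaving out each array.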

Additional observations from a re-analysis of the deposited data

How the results depend on the processing

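Array weights, whose estimation stopped before full convergence, moved the most counts of calls. With them 30 pathway genes were higher in AG1478-treated MT-HGF cells than in wild type (18 without weights) and 16 in v-rasHa cells than in wild type (8), and 30 were lower in MT-HGF than in v-rasHa cells (18). They called 8096 genes for v-rasHa against wild type (5158) and 3925 for AG1478-treated against untreated MT-HGF cells (2615), and the cause was not tested. The other 163 recomputed totals over the 8 genes, the pathway genes or all genes with all arrays lay within 1.5 times those reported. Single lists moved more, and with array weights the calls higher against wild type were 5 for the Wnt receptors (3) and 4 for the other Wnt antagonists (0) in AG1478-treated MT-HGF cells, and 3 for the Wnt response genes in MT-HGF cells (1). Leaving out 1 array gave 14 to 23 pathway genes higher in AG1478-treated than in untreated MT-HGF cells (23 with all), the lowest without MT-HGF replicate 2, and the other 143 such totals lay within 1.5 times, unlike single lists. Same-numbered arrays of different groups had deviations correlated at -0.44 to 0.53 and differently numbered ones at -0.55 to 0.55, so the numbers were not taken to pair the arrays. Between MT-HGF and v-rasHa arrays all same-numbered pairs, at 0.09 to 0.50, lay above the others, at -0.48 to 0.04, which is a hint from the data and not the design. With the replicate number as a block, 2708 genes were called for AG1478-treated against untreated MT-HGF cells (2615 without it), and no call of the 8 genes changed. With the background taken over all 1250 chemosensory clusters, at 6.09 to 6.35 log2 units, all 8 genes lay above it on every array of both MT-HGF groups, and Sostdc1 would count as measured there, at 23.2-fold lower in MT-HGF cells than in wild type in place of at least 14.5-fold. Sostdc1 would then differ between AG1478-treated and untreated MT-HGF cells by 0.71 log2 units. Wif1 would also count as measured, since it lay above this lower background on 2 v-rasHa arrays and on all 3 arrays of each other group. Its differences from wild type would then be 0.40 in AG1478-treated MT-HGF cells, 0.27 in MT-HGF cells and -0.07 in v-rasHa cells. Every one of the 8 genes had 1 cluster, so no other cluster could be tried.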
